A study of Mus musculus with 8 samples.

Results

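CLOCK-only gene-end peaks are sites in a mouse beta-cell line where the clock protein CLOCK was found at the end of a gene and its partner BMAL1 was not called. They were chosen by the deposited peak lists and by position: a peak of the CLOCK list was taken when it shared no base pair with a peak of the BMAL1 list and when its centre lay within 1 kb of either end of a protein-coding gene in RefSeq (GRCm38.p6, which has the coordinates of mm10). The rule selected 333 of the 1378 CLOCK peaks, out of 137716 peaks and intervals in the 6 lists of the series. Since presence in the CLOCK list, absence from the BMAL1 list and distance to a gene end chose them, those values are given as a description. No BMAL1 peak means that none was called, and BMAL1 signal at these sites was not measured. The BMAL1 library held 12892080 tags (aligned reads) against 17898856 for CLOCK, while its list held 4125 peaks against 1378. A peak in either list needed 13 tags, a threshold that was not scaled to the depth of the library.

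CLOCK and BMAL1 are bHLH-PAS proteins that bind DNA as a heterodimer at the E-box, the palindrome CACGTG, and drive genes such as the Per and Cry families, whose products then repress the pair. The same hexamer is bound by other proteins with a basic helix-loop-helix domain, among them the MYC and MAX network, USF1 and USF2, and the lysosomal regulators TFEB and TFE3. In beta cells the clock is known for its part in the timing of insulin secretion.

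The cells were Beta-TC6, a line derived from an insulinoma of mice that carry the SV40 large T antigen under an insulin promoter. All 6 targets (CLOCK, BMAL1, PDX1, H3K27ac, H3K4me2 and H2A.Z) were precipitated from this line, untreated, at confluence, with 1 library each and 2 input libraries as controls for peak calling. H3K27ac and H3K4me2 mark active promoters and enhancers, H2A.Z is a histone variant found beside gene starts, and PDX1 is a homeodomain factor of beta-cell identity. There were no replicates and no second time point, so the tests compare classes of peaks within these libraries and say nothing about the spread between cultures. Depth was 12892080 to 26678241 tags per library. The line's identity was checked with H3K27ac within 1 kb of a gene end, which was present at 15 of 15 beta-cell markers, at 4 of 26 markers of other cell types (Gcg, Krt7, Ttr and Cd68) and at 40.0% of all protein-coding genes.

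The promoter bases are printed for the 6 highest-scoring CLOCK-only gene-end peaks that overlap a promoter window, and each holds an E-box. They come from RefSeq promoter windows (GRCm38.p6, 250 bases before to 50 after a gene start), restricted to the bases that lie before the start and under the CLOCK peak. They read 5′ to 3′ on the strand of the gene the window belongs to, with the E-box in capitals. The window under the Pgm2l1 peak belongs to the neighbouring gene Gm34877.
Lcorl (chr5:45857541-45857692, minus strand): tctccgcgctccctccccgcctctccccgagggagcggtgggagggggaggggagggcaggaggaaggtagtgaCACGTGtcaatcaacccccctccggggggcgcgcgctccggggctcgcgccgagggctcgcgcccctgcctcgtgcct
Pgm2l1 (chr7:100227406-100227529, minus strand): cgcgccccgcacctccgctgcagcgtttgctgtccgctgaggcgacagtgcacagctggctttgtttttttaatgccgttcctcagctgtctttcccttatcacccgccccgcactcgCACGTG
Pip4p1 (chr14:50930996-50931099, minus strand): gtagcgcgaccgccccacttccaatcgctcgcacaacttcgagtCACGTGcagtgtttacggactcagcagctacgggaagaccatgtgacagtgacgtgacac
Bhlhe41 (chr6:145865480-145865670, minus strand): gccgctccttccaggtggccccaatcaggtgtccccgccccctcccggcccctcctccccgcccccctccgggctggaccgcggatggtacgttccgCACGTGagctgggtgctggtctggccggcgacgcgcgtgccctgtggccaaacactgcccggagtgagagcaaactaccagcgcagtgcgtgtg
Tomm20 (chr8:126945922-126946105, minus strand): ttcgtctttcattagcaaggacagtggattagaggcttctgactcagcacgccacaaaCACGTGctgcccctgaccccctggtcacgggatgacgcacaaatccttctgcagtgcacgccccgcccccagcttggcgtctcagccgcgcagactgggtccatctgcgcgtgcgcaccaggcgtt
Dnajc16 (chr4:141790702-141790894, minus strand): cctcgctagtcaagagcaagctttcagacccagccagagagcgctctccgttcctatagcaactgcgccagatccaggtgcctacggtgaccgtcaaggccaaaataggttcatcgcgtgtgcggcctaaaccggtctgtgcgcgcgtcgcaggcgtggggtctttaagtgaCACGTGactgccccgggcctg

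Lcorl encodes a transcription cofactor known for its association with body size, Pgm2l1 a glucose-1,6-bisphosphate synthase, and Pip4p1 a lysosomal phosphoinositide phosphatase. Bhlhe41 (DEC2) is a clock repressor that itself binds E-boxes, Tomm20 is the import receptor of the outer mitochondrial membrane, and Dnajc16 is a J-domain protein. With its flanking bases the E-box read tgaCACGTGtca at Lcorl and tgaCACGTGact at Dnajc16, with the same 3 bases before it, and aaaCACGTGctg at Tomm20. Counted from the start that defines the promoter window, the E-box began 78 bases before it at Lcorl and Dnajc16, 126 at Tomm20 and 153 at Bhlhe41. At Lcorl that start is not the gene start used for distances elsewhere, which lay 245 bp upstream of the peak centre.

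For comparison, the same stretch is given for 3 gene-end CLOCK peaks that did overlap BMAL1, at the clock genes Cry1, Ciart and Per3. The window under the Per3 peak belongs to Gm38529. Ciart shows 3 E-boxes, whereas the bases printed for Cry1 and Per3 hold none. The Cry1 window holds 1, outside the CLOCK peak.
Cry1 (chr10:85185159-85185304, minus strand): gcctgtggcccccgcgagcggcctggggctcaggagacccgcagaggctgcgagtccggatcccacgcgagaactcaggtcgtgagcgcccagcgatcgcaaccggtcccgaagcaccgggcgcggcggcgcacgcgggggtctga
Ciart (chr3:95882242-95882446, minus strand): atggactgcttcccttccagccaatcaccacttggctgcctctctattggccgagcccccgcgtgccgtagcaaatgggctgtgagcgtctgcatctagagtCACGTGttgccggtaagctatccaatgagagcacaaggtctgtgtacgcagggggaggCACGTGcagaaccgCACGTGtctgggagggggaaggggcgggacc
Per3 (chr4:151044678-151044852, plus strand): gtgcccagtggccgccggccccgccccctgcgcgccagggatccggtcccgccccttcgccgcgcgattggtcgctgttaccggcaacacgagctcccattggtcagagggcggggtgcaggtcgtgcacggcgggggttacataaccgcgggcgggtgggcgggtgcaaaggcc

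The CLOCK-only gene-end peaks had scores near those of the whole CLOCK list and below those of the shared peaks. The score of a peak, given by the authors' peak caller, was close to its deposited tags rather than to its count scaled to 10000000. At Ccne2, for example, the score was 56, the tags 55 and the scaled count 31.3. Scores ranged from 13 to 56 with a median of 15, the same median as for all 1378 CLOCK peaks. Among all CLOCK peaks, 43.5% had a score of 13 or 14. Of the 333 peaks, 125 (37.5%) had a score of 13 or 14, 121 (36.3%) of 15 to 19, 67 (20.1%) of 20 to 29 and 20 (6.01%) of 30 or more. The 117 gene-end CLOCK peaks that overlapped BMAL1 had a median of 24 and a maximum of 433. The 787 CLOCK peaks without BMAL1 farther than 1 kb from a gene end, called distal here, had a median of 14 and a maximum of 68. The median number of input tags was 2 in each of these classes. The deposited fold over input had a median of 7.37 in the CLOCK-only gene-end peaks, 15.9 in the shared ones and 8.84 in the distal ones. Since the class was defined by what the BMAL1 list lacked, these differences in score are a description.

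For most of these peaks the nearest BMAL1 peak was more than 10 kb away. The median gap was 132 kb, and 34 (10.2%) had a BMAL1 peak within 10 kb. A BMAL1 peak stood within 1 kb of 12 of them. Gaps were not counted for other CLOCK peaks or for gene ends, and the rule excluded overlap, so these values are a description only. Among the smallest gaps were 25 bp at Ptbp1, a splicing repressor gene (CLOCK score 14), and 104 bp at Akr1b3, an aldose reductase gene (15). On the other side of the limit, the smallest overlaps among the shared peaks were 49 bp at Gtf2a1 (CLOCK score 21), 49 bp at Eid1 (14) and 50 bp at Myt1l (26). Other members of the close group were Srm, which encodes spermidine synthase (score 41, gap 132 bp), Vgf, a secretory granule peptide precursor (18, 311 bp), Nampt, the rate-limiting enzyme of NAD salvage (21, 547 bp), and Bhlhe41 (40, 564 bp). These were chosen after their values were seen, apart from Ptbp1, Akr1b3, Srm, Vgf and Bhlhe41.

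At the limit of distance, the CLOCK-only peaks just inside 1 kb were nearest to Psmb10 (993 bp, score 14), Czib (993 bp, 13) and Sil1 (980 bp, 15). Just outside it were those nearest to Klf5 (1010 bp), Itfg2 (1016 bp) and Mmp16 (1030 bp), each with a score of 13.

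Within the class, the gene end was nearly always the gene start. Strand was known for the nearest gene of 277 peaks, and for 257 of them (92.8%) the nearest end was the start. The remaining 20 were at the other end, and for 56 peaks the strand was not determined. The share was 96.9% (94 of 97) for the gene-end CLOCK peaks on BMAL1, a difference that did not pass the test (odds ratio 0.410, 95% CI 0.119 to 1.41, two-sided adjusted Fisher exact p = 0.218 over 2 tests). It was 81.4% (188 of 231) for the 296 gene-end BMAL1 peaks without CLOCK, below that of the CLOCK-only peaks (odds ratio 2.94, 1.67 to 5.16, adjusted exact p = 0.000258). This second difference was lost when scores of at least 15 were required in both lists (odds ratio 1.52, adjusted exact p = 0.762).

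Of the 257 peaks at a start, 139 were upstream of it and 118 at or downstream of it, with a median signed distance of -38 bp. The median absolute distance was 191 bp, and 143 (55.6%) had their centre within 250 bp of the start. Counting all 333, 184 (55.3%) had their centre between the ends of a gene. Ends of 2 or more genes, starts or not, were within 1 kb of 56 peaks (16.8%), against 16.2% of the shared peaks and 14.9% of the BMAL1 peaks without CLOCK, which was not tested. Exons, introns and UTRs were not determined.

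**Figure D1:**
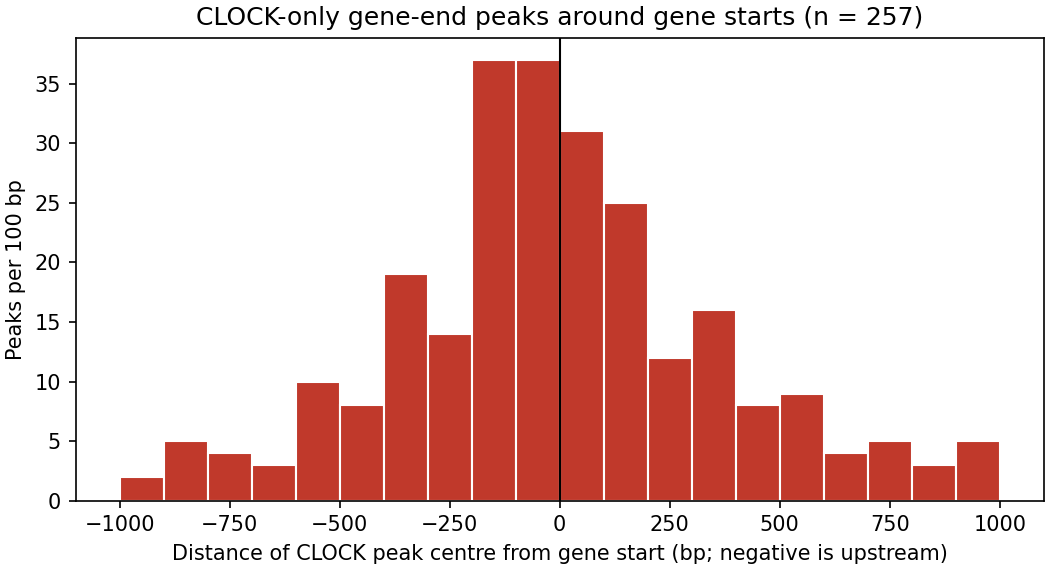
Histogram of the distance in bp from the gene start to the centre of each CLOCK-only gene-end peak whose nearest end was a start, in bins of 100 bp, negative upstream. The 257 CLOCK-only peaks gather on both sides of the start, with a median of -38 bp and 143 within 250 bp.

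Most of these sites overlapped H3K27ac, and most overlapped H3K4me2. H3K27ac covered 241 of the 333 (72.4%, Wilson 95% CI 67.3 to 76.9, which covers counting error only), H3K4me2 covered 247 (74.2%, 69.2 to 78.6) and H2A.Z covered 108 (32.4%). Of all CLOCK peaks, 62.8% overlapped H3K27ac, 55.4% H3K4me2, 19.4% H2A.Z and 19.4% PDX1. At least 1 of the 3 chromatin lists covered 313 of the CLOCK-only gene-end peaks, 181 (54.4%) lay in H3K27ac and H3K4me2 together, and 64 in all 3. A single mark was seen at 47 for H3K27ac, 40 for H3K4me2 and 6 for H2A.Z, and 19 (5.71%) overlapped none of these lists nor PDX1. These combinations were not counted over all CLOCK peaks, so they are a description only. The H3K27ac share was 67.2% at scores of 13 or 14, 77.7% at 15 to 19, 73.1% at 20 to 29 and 70.0% at 30 or more, so that the sites nearest to the calling threshold were also mostly acetylated.

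Against the distal CLOCK peaks without BMAL1, the gene-end ones carried more of each mark and far less PDX1. The shares were 72.4% against 53.4% for H3K27ac (odds ratio 2.29, 95% CI 1.73 to 3.02, two-sided adjusted Fisher exact p = 8.33e-09 over 12 tests). They were 74.2% against 43.6% for H3K4me2 (odds ratio 3.72, 2.80 to 4.93, adjusted exact p = 1.56e-20) and 32.4% against 11.8% for H2A.Z (3.58, 2.61 to 4.91, adjusted exact p = 1.59e-14). PDX1 overlapped 8 of 333 (2.40%) against 29.6% of the distal peaks (odds ratio 0.0585, 0.0285 to 0.120, adjusted exact p = 1.97e-29). The H2A.Z and PDX1 differences passed under all 9 alternatives tried. The H3K27ac difference was lost at scores of at least 15 (odds ratio 1.30, adjusted exact p = 0.465), and with CLOCK scores of at least 20 it turned to 0.492 (adjusted exact p = 0.204) while that of H3K4me2 was 1.75 (adjusted exact p = 0.204).

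Against the gene-end CLOCK peaks on BMAL1, the difference passed for H3K27ac and not for the other lists. H3K27ac covered 72.4% of the CLOCK-only and 83.8% of the shared peaks (odds ratio 0.508, 0.294 to 0.878, adjusted Fisher exact p = 0.0299 over 12 tests). H3K4me2 covered 74.2% and 73.5% (odds ratio 1.04, 0.642 to 1.67, adjusted exact p = 0.903) and H2A.Z 32.4% and 29.1% (1.17, 0.739 to 1.86, adjusted exact p = 0.676), both with intervals that allow differences in either direction. PDX1 overlapped 0 of 117 shared peaks, which allows a share of up to 3.18% (Wilson), and 2.40% of the CLOCK-only ones (odds ratio 6.14 with 0.5 added to each cell, 0.351 to 107, adjusted exact p = 0.159). The H3K27ac difference did not pass in 6 of the 9 alternatives, where the odds ratio was 0.497 to 0.862.

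Against the gene-end BMAL1 peaks without CLOCK, H3K27ac (72.4% against 59.5%, odds ratio 1.79, 1.28 to 2.49, adjusted Fisher exact p = 0.00172) and H3K4me2 (74.2% against 63.5%, 1.65, 1.17 to 2.32, adjusted exact p = 0.00862) were more frequent. H2A.Z was less frequent (32.4% against 41.6%, odds ratio 0.675, 0.487 to 0.935, adjusted exact p = 0.0305), and PDX1 was at 2.40% and 2.03% (1.19, 0.408 to 3.47, adjusted exact p = 0.865). Taking gene starts alone, the first 2 odds ratios went to 1.03 and 0.961 (adjusted exact p = 0.915 for each), whereas that of H2A.Z was 0.518 (adjusted exact p = 0.00206). The H2A.Z difference in turn did not pass with gene ends within 2 kb, at 8 times the input, with peak centres alone or with the upper part of the H2A.Z list. BMAL1 peaks were 331 bp wide and CLOCK peaks 205 bp, so a BMAL1 peak has more room to touch an interval. With peak centres alone the H2A.Z odds ratio was 0.759 (adjusted Fisher exact p = 0.183).

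**Figure D2:**
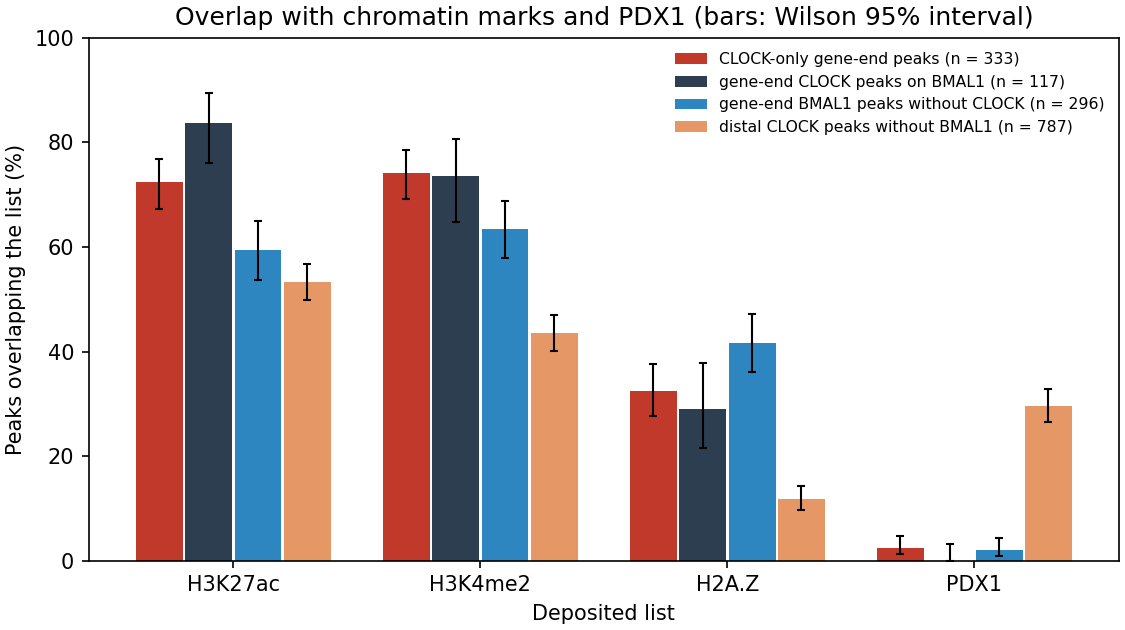
Share of peaks, in percent, that overlap H3K27ac, H3K4me2, H2A.Z and PDX1 in the 4 classes of peaks, with Wilson 95% intervals as error bars. H3K4me2 stands at 74.2% of CLOCK-only gene-end peaks and 43.6% of distal ones, and PDX1 at 2.40% and 29.6%.

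The acetylated gene ends that held a CLOCK-only peak had more H3K27ac tags and were wider than those with neither factor. Of 7953 H3K27ac intervals at gene ends, 239 held such a peak and 7367 held no peak of CLOCK or BMAL1. Their median normalised H3K27ac tag count was 217 against 112, their median width 1962 bp against 1425 bp, and their median density 109 against 77.9 tags per kb. A wider interval has more room for a peak, so these sizes are given without a test. The 98 intervals with a shared peak had a median tag count of 195, a median width of 1926 bp and a median density of 112 tags per kb. H3K4me2 overlapped 93.3% of the intervals with a CLOCK-only peak and 86.7% of those with neither factor (odds ratio 2.14, 1.29 to 3.58, adjusted Fisher exact p = 0.00286 over 3 tests). H2A.Z overlapped 56.9% and 46.5% (1.52, 1.17 to 1.97, adjusted exact p = 0.00286), and PDX1 10.0% and 8.29% (1.23, 0.803 to 1.90, adjusted exact p = 0.341). Within 5 classes of interval width none of the 3 passed (Mantel-Haenszel odds ratio 1.44 for H3K4me2, 1.34 for H2A.Z and 0.835 for PDX1).

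The 5 intervals with the most H3K27ac tags were at Zfhx2 (2207 normalised tags), Brd2 (2083), Tshz1 (1632), Ubb (1511) and Ptbp1 (1417). Zfhx2 and Tshz1 encode zinc finger homeobox proteins, Brd2 a bromodomain protein that reads acetylated histones, and Ubb a polyubiquitin. Their CLOCK scores were 18, 27, 13, 15 and 14, so the intervals with the most tags were not those of the highest CLOCK scores. They were 8782, 5673, 14183, 3822 and 6328 bp wide, against a median of 1962 bp for intervals with a CLOCK-only peak. The tag count is summed over the interval, so it does not rank the sites by density.

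The E-box was frequent in the promoters under these peaks. A RefSeq promoter window of 300 bases overlapped 169 of the 333 peaks, and 77 of these windows (45.6%, Wilson 95% CI 38.2 to 53.1) held CACGTG. It was in 7.15% of all 32851 windows and in 786 of the 8515 windows (9.23%) that touched H3K27ac and had no CLOCK or BMAL1 peak within 1 kb. The odds ratio against those acetylated windows was 8.23 (6.03 to 11.2, adjusted Fisher exact p = 2.01e-33 over 2 tests). Of the 97 windows under gene-end BMAL1 peaks without CLOCK, 28 (28.9%) held an E-box, fewer than under the CLOCK-only peaks (odds ratio 2.06, 1.21 to 3.52, adjusted exact p = 0.00904). Both of these tests were added after seeing the data, and both differences passed in every alternative tried for them. The set of acetylated windows was the same in all of these, so only the CLOCK-only side or the motif varied. The alternative with bases inside the peak was not run against that set.

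Of the 65 windows under shared peaks, 41 (63.1%) held an E-box. The odds ratio of the CLOCK-only against the shared windows was 0.490 (0.272 to 0.882), with a raw Fisher exact p of 0.0195 and an adjusted p of 0.234 over the 12 motifs, so the difference did not pass. Windows with 2 or more E-boxes made up 22 of the 169 CLOCK-only windows, 17 of the 65 shared ones (26.2%), 2.06% of those under BMAL1 peaks without CLOCK and 0.822% of the acetylated windows with neither factor. Among the CLOCK-only peaks the highest numbers were 5 at Mfsd1, a lysosomal transporter gene, and 4 each at Lamp1 and Cdk4, named here after their values were seen.

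Within the CLOCK-only peaks the E-box share went up with the score. It was 29.4% (15 of 51) at scores of 13 or 14, 46.9% (30 of 64) at 15 to 19, 50.0% (19 of 38) at 20 to 29 and 81.3% (13 of 16) at 30 or more. The lowest of these classes was still above the 9.23% of acetylated windows with neither factor. Peaks with an E-box in the window had a median score of 17 and those without one of 15, with a median of 2 input tags in both. The marks went the other way or were alike: H3K27ac was at 53 of the 77 peaks with an E-box (68.8%) and 69 of the 92 without, H3K4me2 at 68.8% and 79.3%, and H2A.Z at 33.8% and 30.4%. These splits of the members are given without a test.

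**Figure D3:**
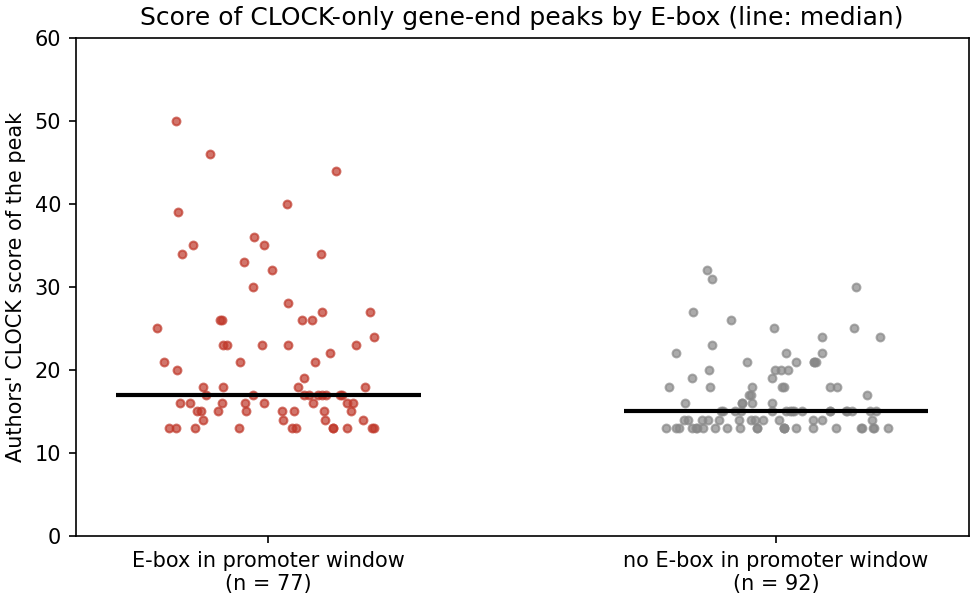
CLOCK peak score of the CLOCK-only gene-end peaks with a promoter window, split by whether the window holds CACGTG, each point 1 peak and each line a median. The 77 peaks with an E-box have a median of 17 and the 92 without one a median of 15, and 13 of the 16 peaks at 30 or more have an E-box.

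The E-boxes gathered near the peak centre. The 77 windows held 107 E-boxes, at a median of 49.5 bp from the peak centre, and 55 (51.4%) were within 50 bp of it, where 22.2% of the window bases lay. For the shared peaks 34 of 59 (57.6%) were within 50 bp, with 26.8% of the bases there and a median of 37.5 bp. Peak position comes from the same reads as the rule, and the distances were not tested.

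**Figure D4:**
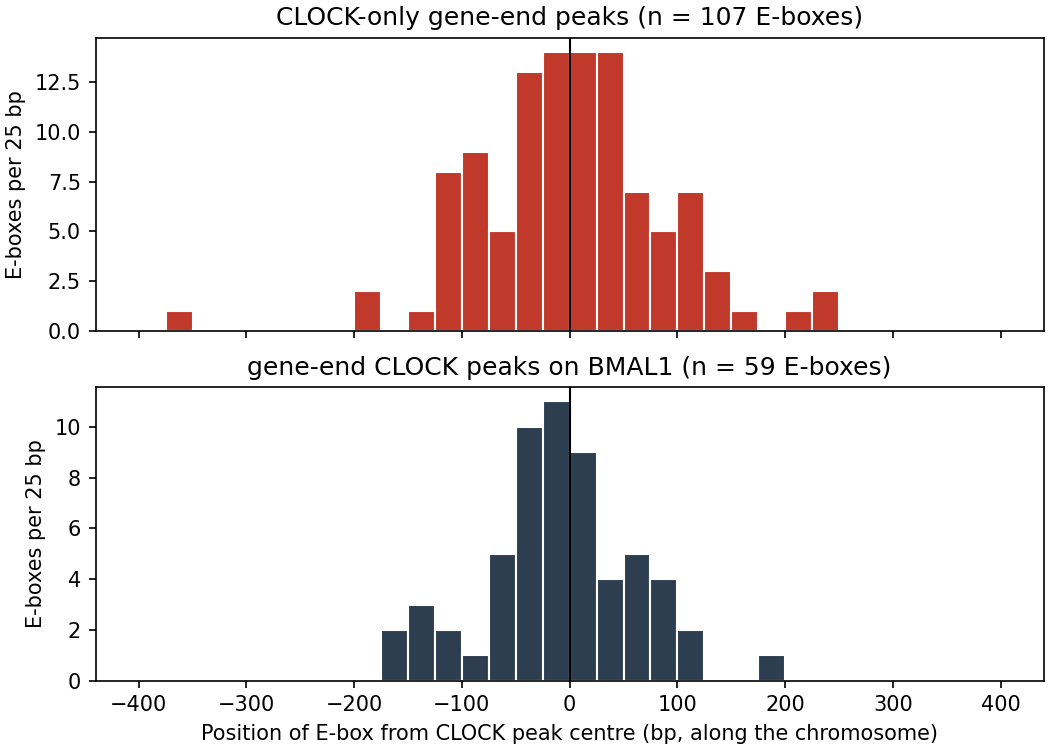
Histograms of the position in bp of each E-box from the peak centre, along the chromosome and in bins of 25 bp, in the promoter windows of CLOCK-only gene-end peaks (upper) and shared peaks (lower). Of the 107 E-boxes of the CLOCK-only peaks 55 lie within 50 bp of the centre, against 34 of 59 for the shared peaks.

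The bases beside the hexamer also varied. Among the 77 CLOCK-only windows with an E-box, TCACGTGA was in 14 (18.2%), GCACGTGC in 8 (10.4%) and CCACGTGG in 3 (3.90%). The same 3 octamers were in 19.5%, 14.6% and 0% of the 41 shared windows with an E-box and in 22.3%, 4.33% and 10.8% of the 786 acetylated windows with one and neither factor. No test was made on these flanks.

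For none of the other 11 motifs did the difference from the shared peaks pass (adjusted Fisher exact p = 1 for each over 12 tests, with shares of 0% to 81.5% under shared peaks). A motif was counted on both strands, and a base could belong to 2 motifs where they overlapped. The CCAAT motif of NFY was in 44.4% of the CLOCK-only windows and 37.4% of all windows, and GGGCGG, read by SP and KLF factors, in 75.7% and 35.7%. In acetylated windows with neither factor these motifs stood at 36.7% and 65.3%. CCGGAAG, read by ETS factors, was in 17.2% of the CLOCK-only windows and 8.86% of all windows, with 19.5% in the acetylated ones. CACGTT, called the E′-box and also read by the clock pair, was in 10.1% and 4.68%, with 5.34% in the acetylated ones.

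The rest were rare. TTATGTAA, the D-box of the PAR bZIP factors, was in 0.592% of the CLOCK-only and 0.938% of all windows. The cyclic AMP element TGACGTCA was in 4.14% and 1.79%, the AP-1 site TGACTCA in 2.37% and 5.20%, and the YY1 site AAGATGGC in 4.14% and 2.75%. The palindromic NRF1 site was in 1.18% and 0.971%, a site of the ZBTB33 type in 0.592% and 0.466%, and one of the ZNF143 type in 1.18% and 0.286%. The windows under CLOCK-only peaks had a median GC content of 65.7% and a median of 28 CpG dinucleotides, against 67.3% and 30 under shared peaks, 62.0% and 22 in the acetylated windows with neither factor and 52.7% and 7 in all windows. The part of base composition in these motif shares was not tested.

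**Figure D5:**
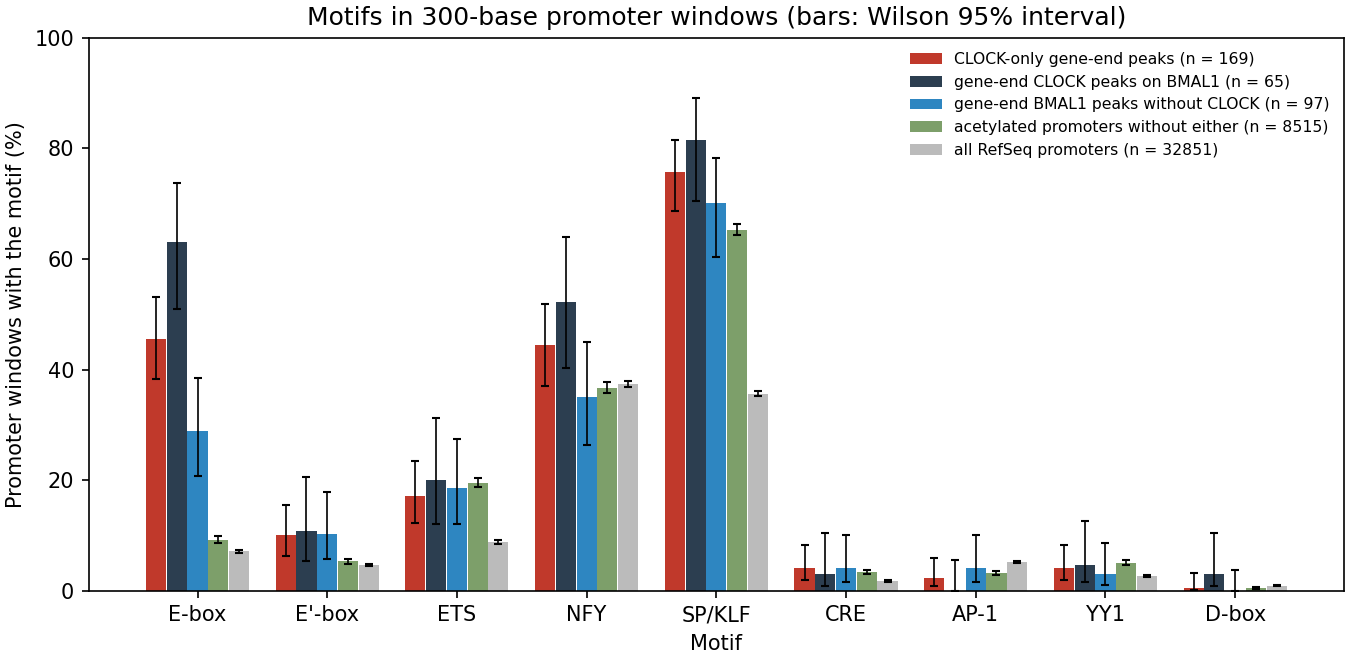
Share of promoter windows, in percent with Wilson 95% intervals as error bars, that hold each of 9 motifs on either strand (the NRF1, ZBTB33 and ZNF143 types are left out), for CLOCK-only gene-end peaks, shared peaks, BMAL1 peaks without CLOCK, acetylated windows with neither factor and all windows. CACGTG is in 45.6% of the CLOCK-only windows and in 9.23% of the acetylated windows with neither factor.

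The strongest CLOCK-only gene-end peaks were at genes of several kinds. The highest was nearest to Ccne2, a G1/S cyclin gene (chr4:11191138-11191342, score 56, centre 807 bp from a gene end), and it also had the most input tags of the class (11, 5-fold over input). Lcorl followed (chr5:45857488-45857692, score 50) with 1 input tag and 49.1-fold over input. Then came Pgm2l1 (46), Pip4p1 (44), Srm (41), Bhlhe41 (40) and Tomm20 (39). They were followed by Klf16, a zinc finger factor gene, and Dnajc16 (36 each), and by Taf8, a TFIID subunit gene, and Macrod1, an ADP-ribose hydrolase gene (35 each). Ehmt2, the H3K9 methyltransferase G9a, and Atp6v0b, a subunit of the vacuolar proton pump, had a score of 34 each, Lamp1, a major lysosomal membrane glycoprotein, 33, and Txnip, a glucose-responsive inhibitor of thioredoxin, 32. A promoter window was present for 12 of these 15, and in 11 of the 12 it held an E-box. Txnip was the exception. H3K27ac covered 11 of the 15.

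The highest-scoring peaks outside H3K27ac were those of Dnajc16, Taf8, Macrod1, Txnip and Ccno, a cyclin-like gene with a score of 31. H3K4me2 covered 4 of these 5, and Taf8 overlapped none of the 4 lists.

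Of 27 core clock genes, 1 (Bhlhe41) had a CLOCK-only gene-end peak and 13 had a shared one. A CLOCK-only peak was the nearest at a gene end for 328 genes, 1.50% of all protein-coding genes and 3.17% of those with H3K27ac at an end. Counts by gene group are given beside that background and carry no test.

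By share of the list, the highest count was that of the insulin, processing and granule genes, at 4 of 26 (15.4%). They were Vgf (score 18), Kcnj11 and Abcc8, which encode the 2 subunits of the beta-cell ATP-sensitive potassium channel (16 and 13), and P4hb, a protein disulphide isomerase (15). Exocytosis genes counted 3 of 56 (5.36%): Unc13a, a vesicle priming factor (19), Napa, an adaptor for SNARE disassembly with 3 E-boxes in its window (17), and Syt7, a calcium sensor (16). ER folding and stress genes counted 3 of 34 (8.82%), which were Derl3, a component of ER-associated degradation (18), P4hb, and Atf6, a transducer of the unfolded protein response (13). None of the 24 beta-cell transcription factor genes had such a peak, and 18 had H3K27ac at an end. At the background of 3.17% of acetylated genes, a list this short can hold none without departing from it.

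Genes for widely expressed and stress-related bZIP and bHLH-ZIP factors counted 4 of 34 (11.8%). Max, the common partner of the MYC network, had a score of 15, Mga, a MAX partner, had peaks of 15 and 13 that were 435 bp apart, and Mxd3, a MAX-binding repressor, had 14. Cebpb, a bZIP factor, had 29. The general transcription list counted 9 of 105 (8.57%), with Taf8 (35), Gtf2h1, a TFIIH subunit (21), the Mediator subunits Med18 (16) and Med15 (13), and the RNA polymerase III subunits Polr3b and Polr3a (15 each). Taf4b and Gtf3c2 had 14 each, and Taf1a had 13. Immediate early genes counted 3 of 37 (8.11%), with the phosphatase genes Dusp1 (15) and Dusp6 (13) and with Egr4 (13).

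Cell cycle genes counted 2 of 40 (5%), Ccne2 (56) and Cdk4, a G1 kinase gene (27). Translation factors and tRNA synthetases counted 2 of 50 (4%), Vars (30) and Eif4g1 (23). Solute carriers, whose share of 9 of 346 (2.60%) was nearer to the background, included the sulphate transporter Slc26a2 (27), Slc35a4 (22), the glucose transporter family member Slc2a6 (21) and the monocarboxylate transporter Slc16a1, the amino acid transporter Slc38a2 and the mitochondrial carriers Slc25a44 and Slc25a33 (17 each), with Slc36a1 and Slc7a1 at 13 each.

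Zinc finger genes named Zfp counted 8 of 397 (2.02%), led by Zfp131 (26), with Zfp292, Zfp771 and Zfp653 at 23 each, Zfp365 (18), Zfp28 (15), and Zfp639 and Zfp619 (14 each). Oxidative phosphorylation subunits counted 2 of 86 (2.33%), Atp5d (15) and Ndufb6 (14). Single members were found for the proteasome (Psmb10, 14, of 49), the nuclear pore (Nup205, 15, of 21), splicing (Srsf6, 19, of 70), cholesterol and fatty acid synthesis (Insig1, which retains the SREBP complex in the ER, 26, of 31) and mitochondrial ribosomal proteins (Mrpl54, 15, of 78). None were found among 24 heat shock and chaperone genes, 12 histone genes and 27 hypoxia and glycolysis genes, lists also too short for this to depart from the background.

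After Lamp1 and Atp6v0b had been seen among the highest peaks, 2 further lists were added, so their counts are no independent evidence. Lysosomal enzymes and membrane proteins counted 3 of 57 (5.26%). Of those with H3K27ac at an end the share was 2.63%, below the 3.17% of all such genes. The 3 genes were Lamp1 (33), the lysosomal chloride transporter gene Clcn7 (28) and the protease gene Ctsd, with peaks of 18 and 13 that were 852 bp apart. Subunits of the vacuolar proton pump counted 2 of 26 (7.69%), Atp6v0b (34) and Atp6v1h (26), and 11.1% of those with H3K27ac at an end. The windows of Lamp1, Clcn7, Ctsd and Atp6v0b each held 2 or more E-boxes.

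Beyond Mga and Ctsd, 3 genes had 2 of these peaks. At Ran, the GTPase of nuclear transport, peaks of 13 and 21 were 818 bp apart, both by the start. At Dapk3, a kinase gene, a peak of 22 was by the start and one of 13 by the other end. Mtfr1l had peaks of 15 at both ends.

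The 8 peaks on PDX1 had CLOCK scores of 13 to 19, a range that held most of the class. Of all 333 peaks, 37.5% scored 13 or 14 and 36.3% scored 15 to 19, with a median of 15. The peak centre lay inside the PDX1 peak at 2 of the 8. The 8 were nearest to Abcd3 (CLOCK 19, PDX1 44), Pes1 (18 and 14), Uts2b (14 and 28), Trub1 (14 and 24), Ctbp1 (14 and 25), Kntc1 (14 and 36), Alkbh5 (13 and 35) and Med15 (13 and 14). In 4 of the 8 (Abcd3, Trub1, Ctbp1 and Kntc1) the nearest gene end was not the start, compared with 20 of 277 in the whole class. Scores of the 2 factors come from separate lists and are not on 1 scale.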

How the data were processed

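Chromatin was fixed with DSG and then formaldehyde before shearing, per the labels' protocols. The submitters' processing notes name Bowtie 1.1.1, mm10 and HOMER (no version of HOMER in the sources used here). Per the file headers, HOMER findPeaks made 1 list per library, with fixed widths for CLOCK (205 bp), BMAL1 (331 bp) and PDX1 (235 bp) and variable widths for the histone lists. Per the file headers, the thresholds of a factor peak were 13 tags, a 4-fold excess over input and over the flanking 10 kb, an FDR of 0.001 and a Poisson p-value of 0.0001. The deposited normalised tag counts are a signal scaled to 10000000 tags per library. The authors' score ranked and classed peaks within a list, and the deposited ratio over input served as a filter at 8-fold. The deposited focus ratio, a fraction, and the deposited p-value columns entered no test. For H2A.Z, the header and the title of the input were followed, since the sample description names the other input.

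An overlap was 1 or more shared bp. Gene spans came from RefSeq (21887 protein-coding genes), and strand from its promoter table, known for 79.9% of genes. A peak took the promoter window it overlapped most. Differences between classes were tested two-sided with Fisher's exact test, with Woolf intervals and Benjamini-Hochberg adjustment within families of 12 overlaps, 3 interval tests, 2 start tests and 12 motifs, and the 2 E-box tests added later. Peaks are not replicates, so p-values describe these libraries alone. The tests were checked on simulated data. Python 3.11.15, pandas 2.3.3, SciPy 1.17.1 and statsmodels 0.14.6 were used.

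The members, gene lists and tests were chosen with earlier results of these data known. Named genes were the 15 highest scores, list members (the top 4 where a list had over 12), peaks on PDX1, the peaks at each limit, the 5 highest H3K27ac counts and the 5 highest scores outside H3K27ac. A few members and 1 gene list that this rule would name are not reported here. Alternatives changed the distance, score, fold and overlap rules, used gene starts alone, took only peaks with no BMAL1 peak within 1 kb, and stratified by interval width. For the E-box, the bases inside the peak were also used.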

Additional observations from a re-analysis of the deposited data

How the results depend on the processing

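Under the alternatives, 124 values kept their direction and side of the threshold, 31 no longer passed, 21 turned direction (2 of them by the 0.5 added to empty cells), 1 passed newly and 3 moved. The number of CLOCK-only gene-end peaks was 220 with factor scores of 15 or more, 87 with CLOCK scores of 20 or more and 182 at 8 times the input. The score and fold settings filtered the peak lists before overlap was taken. A peak on a peak of the other factor below the filter then counted as lacking that factor. With CLOCK scores of 20 or more, gene-end BMAL1 peaks without CLOCK went from 296 to 334. Classes under these settings therefore mix in sites shared in the deposited lists. The E-box differences from BMAL1 peaks without CLOCK (odds ratio 1.80 to 2.65) and from acetylated windows with neither factor (6.46 to 14.3), and the H2A.Z and PDX1 differences from distal peaks, passed under all alternatives run for them. The set of acetylated windows stayed the same throughout. The cause of the following changes was not tested.

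The remaining values are odds ratios. Against shared peaks, H3K27ac did not pass at scores of 15 or more (0.655), at CLOCK scores of 20 or more (0.565), at 8 times the input (0.708), by peak centre (0.584), in the higher-scoring part of the mark lists (0.862) and at gene starts (0.497). H3K4me2 turned at 500 bp (0.963), 2 kb (0.877), scores of 15 (0.772), CLOCK scores of 20 (0.831) and that part of the list (0.830). PDX1 passed at 2 kb (11.5). With CLOCK scores of 20 (0 of 87 against 0 of 79) and at 8 times the input (1 of 182 against 0 of 52), the PDX1 values of 0.909 and 0.868 come from the 0.5 added to each cell and give no direction. Against distal peaks, H3K27ac was 1.30 at scores of 15 and 0.492 at CLOCK scores of 20, where H3K4me2 was 1.75.

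Against BMAL1 peaks without CLOCK, H3K27ac did not pass at 500 bp (1.56), scores of 15 (1.15), CLOCK scores of 20 (1.57) and gene starts (1.03). H3K4me2 did not pass at 500 bp (1.51), CLOCK scores of 20 (1.47) and by centre (1.46), and turned at scores of 15 (0.982) and gene starts (0.961). H2A.Z did not pass at 2 kb (0.901), 8 times the input (0.859), by centre (0.759) and in the higher-scoring part (0.685). PDX1 turned at 500 bp (0.992), scores of 15 (0.626), CLOCK scores of 20 (0.250), 8 times the input (0.834), by centre (0.441) and at gene starts (0.727). The share at starts did not pass at scores of 15 (1.52) and CLOCK scores of 20 (2.25).

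For the acetylated intervals, H3K4me2 did not pass at scores of 15 (1.66), CLOCK scores of 20 (1.76), by centre (1.00) and within widths (1.44). H2A.Z did not pass at 500 bp (1.33), scores of 15 (1.42), CLOCK scores of 20 (1.42), by centre (1.06), in the higher-scoring part (1.37) and within widths (1.34). PDX1 turned at scores of 15 (0.959), CLOCK scores of 20 (0.541), 8 times the input (0.442), by centre (0.315) and within widths (0.835). Each target had 1 library, so a missing BMAL1 peak rests on 1 list and no replicate could be left out. Depth can limit such a call, which was not tested. No paired analysis was possible because no group had replicates.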
